A study of Mus musculus with 12 samples.

Results

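The circadian clock genes described here are 10 genes, Arntl, Clock, Per1, Per2, Per3, Cry1, Cry2, Nr1d1, Nr1d2 and Dbp, taken by their symbols from the 24062 genes of the brain and spleen expression tables, and all 10 were found in both tissues. RNA from whole brain and from spleen was sequenced in 2 groups of C57BL/6 males of 10 weeks, with 3 Norad-/- and 3 Norad+/+ libraries for each organ. Norad-/- mice lack Norad, a long noncoding RNA that binds the Pumilio proteins, after CRISPR/Cas9 deletion. The study kept several deletion lines, each from its own founder and backcrossed to C57BL/6J, and the line of each mouse is not given in the sources used here. Mice lived under a daily light and dark cycle, but the hour at which tissue was collected is not given in the sources used here, nor whether the brain and spleen of a number come from 1 mouse.

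The mammalian clock is a transcriptional feedback loop that runs in nearly every cell. ARNTL (also called BMAL1) and CLOCK bind as a pair to E-boxes and switch on the Per and Cry genes, whose proteins return to the nucleus and repress that pair, while the nuclear receptors encoded by Nr1d1 and Nr1d2 (REV-ERB alpha and beta) repress Arntl through response elements shared with the ROR receptors. Dbp encodes an output factor that acts on D-boxes. In the brain the suprachiasmatic nucleus sets the rhythm for the rest of the body, and in spleen the clock times immune cell functions. Because many of these transcripts swing over the day, a single collection gives their level at 1 phase, and a shift in phase and a change in overall level cannot be told apart in these data.

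The promoter elements through which the loop acts are shown here because the activators, repressors and output factor are described by those links below. Promoter windows of 300 bases (RefSeq, build GRCm38.p6) were matched for 9 of the 10 genes; Per2 had no entry. They were searched on both strands for the E-box CACGTG, the D-box TTATGTAA or TTACGTAA, the core of the ROR element TAGGTCA or TGGGTCA, and the cyclic AMP element TGACGTCA. Capitals mark the matched letters in these 5 stretches, each 5′ to 3′ on the strand of its gene.
Arntl ROR element core (chr7:113207526-113207560, plus strand): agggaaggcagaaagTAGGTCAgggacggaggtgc
Per1 E-box (chr11:69098768-69098803, plus strand): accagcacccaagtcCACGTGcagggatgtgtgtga
Per3 D-box farther from the start site (chr4:151044848-151044885, minus strand): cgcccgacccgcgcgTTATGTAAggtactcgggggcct
Per3 D-box nearer to the start site (chr4:151044801-151044838, minus strand): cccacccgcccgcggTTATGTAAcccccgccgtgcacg
Cry1 E-box (chr10:85185094-85185129, minus strand): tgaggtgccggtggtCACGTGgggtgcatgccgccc

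Among 27025 genes with such a window, 8.09% held the E-box, 1.23% the D-box, 7.35% the ROR element core and 2.03% the cyclic AMP element. The Arntl match lies at 30 from a start site, the Per1 and Cry1 E-boxes lie at -166 and -60 from one, and the Per3 D-boxes at -205 and -158 from theirs. The windows of Clock, Cry2, Nr1d1, Nr1d2 and Dbp held none of these letters, which says only that the letters are not in these windows.

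Pumilio proteins bind the Pumilio response element (PRE), UGUANAUA, in 3′ UTRs. In the longest annotated 3′ UTR (GENCODE M21, build GRCm38), 6 of the 10 clock genes held at least 1 PRE, against 23.2% of 21037 genes. Per2, Per3, Cry1 and Nr1d2 held 2 each, where 7.2% of genes held 2 or more, and Clock and Nr1d1 held 1. Arntl, Per1, Cry2 and Dbp held 0. Longer 3′ UTRs held a PRE more often. Of genes with a 3′ UTR about as long as that of Clock (6831 bases), 74.4% held one, and for Per2 (1889 bases), Cry1 (612 bases) and Nr1d1 (288 bases) that share was 32.6%, 13.9% and 6.4%. For Per3 (2224 bases) and Nr1d2 (2631 bases) it was 36.8% and 41.2%. The 7.2% with 2 or more PREs is over 3′ UTRs of all lengths, and no such share was taken at like length. The sites of Per2 and Cry1 are shown because these genes, each with 2 PREs, stood on opposite sides in spleen; capitals mark the PRE.
Per2 PRE (chr1:91416890-91416919, minus strand): cccacucuauaUGUAUAUAcuccuagcuac
Per2 PRE near the end of the UTR (chr1:91416150-91416179, minus strand): cuucuuuuuaaUGUAAAUAagcucucagag
Cry1 PRE (chr10:85132111-85132140, minus strand): aagugguaauuUGUAUAUAagaucuuggua
Cry1 PRE downstream (chr10:85132078-85132107, minus strand): gauuugcuuaaUGUAAAUAuaagccacagu

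Values are FPKM, which count fragments relative to the length of the transcript and the depth of the library, so levels of different genes are on 1 scale. Differences are log2 fold changes of Norad-/- over Norad+/+ on log2(FPKM + 0.1), fitted by limma over every gene whose mean in that tissue reached 1 FPKM, with p adjusted over all of these genes and a threshold of 0.05. Estimated depth was 28.35 to 36.6 M reads a library, and a clock gene rested on an estimated 359 to 6056 reads. Norad was at 0.00586, 0 and 0.0121 FPKM in Norad-/- brains, against 206, 259 and 635 FPKM in Norad+/+ brains, and at 0.00622, 0.0173 and 0 FPKM in Norad-/- spleens, against 62.0, 42.9 and 56.3 FPKM in Norad+/+ spleens, as the labels say. One library, Norad+/+ brain replicate 3, was less like the other brains (median Spearman correlation 0.978) than they were to each other (0.985 to 0.987), and pituitary markers summed to 1314 FPKM in Norad-/- brain replicate 3, with at most 1.04 in the Norad+/+ brains. Pancreas and liver markers summed to at most 0.187 FPKM in the Norad-/- spleens and to 244 FPKM in Norad+/+ spleen replicate 3, which had the lowest such correlation in spleen (0.970). The labels of the tissues fit their markers: neuron markers summed to 1426 to 1642 FPKM in Norad-/- and 1481 to 1945 in Norad+/+ brains, and B cell markers to 1021 to 1192 FPKM in Norad-/- and 926 to 1142 in Norad+/+ spleens. In spleens, neuron markers summed to 3.08 to 3.43 FPKM in Norad-/- and 2.21 to 14.3 FPKM in Norad+/+ mice. In brains, B cell markers summed to 0.167 to 2.08 and 0.134 to 2.93 FPKM. Norad+/+ spleen replicate 3 also held Snap25 at 7.02 and Ttr at 8.42 FPKM, against at most 0.560 and 0.411 FPKM in the other spleens.

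None of the 10 clock genes passed the threshold in brain or in spleen. In brain 2 of 13051 genes passed (0.0153%), and in spleen 4 of 12397 did (0.0323%). The deleted gene Norad was itself among those that passed in each tissue (limma, adjusted p = 0.00077 in brain and 2.0e-05 in spleen). At an unadjusted p under 0.05, there were 4 of the 10 in brain (Arntl, Per1, Per2 and Nr1d1), against 6.62% of genes, and 2 in spleen (Per2 and Cry1), against 21%, so the spleen count was near the share over all genes. The brain count was not stable: it was 1 without Norad-/- replicate 1 or without Norad-/- replicate 2, and 1 to 4 over all libraries left out in turn. Without Norad+/+ replicate 1 it was 2, and with replicate 3 of both brain groups left out it was 3. The spleen count ranged from 0 (without Norad+/+ replicate 2) to 4 (without Norad+/+ replicate 1), and was 1 without Norad-/- replicate 1, Norad-/- replicate 3 or Norad+/+ replicate 3. The median log2 fold change of the 10 was 0.02 in brain, as over all genes (0.02), and 0.06 in spleen, against -0.02 over all genes. Rescaling every library to the same total FPKM moved the spleen medians to 0.17 for the clock genes and 0.10 for all genes, and on either scale 6 of the 10 clock genes lay above the median of all genes.

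Groups that did not overlap were counted next. In brain, 3 clock genes (Arntl, Per1 and Nr1d1) were higher in every Norad-/- mouse than in every Norad+/+ mouse, against 10.6% of all genes, and 2 (Per2 and Per3) were lower, against 6.56%. In spleen 3 (Arntl, Clock and Cry1) were higher without overlap, against 11.6% of genes, and 1 (Per2) was lower, against 14.9%. Arntl was the 1 clock gene higher without overlap in both tissues, as 1.3% of the 10481 genes tested in both were, and Per2 the 1 lower in both, as 0.83% were. These are counts of order with 3 mice a group and not calls of the fit. They also depend on the scale: after that rescaling, Per1 and Per3 in brain and Arntl and Clock in spleen overlapped, Per1 in spleen became higher without overlap, and Arntl, Per2 and Nr1d1 in brain and Per2 and Cry1 in spleen stayed apart.

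**Figure D1:**
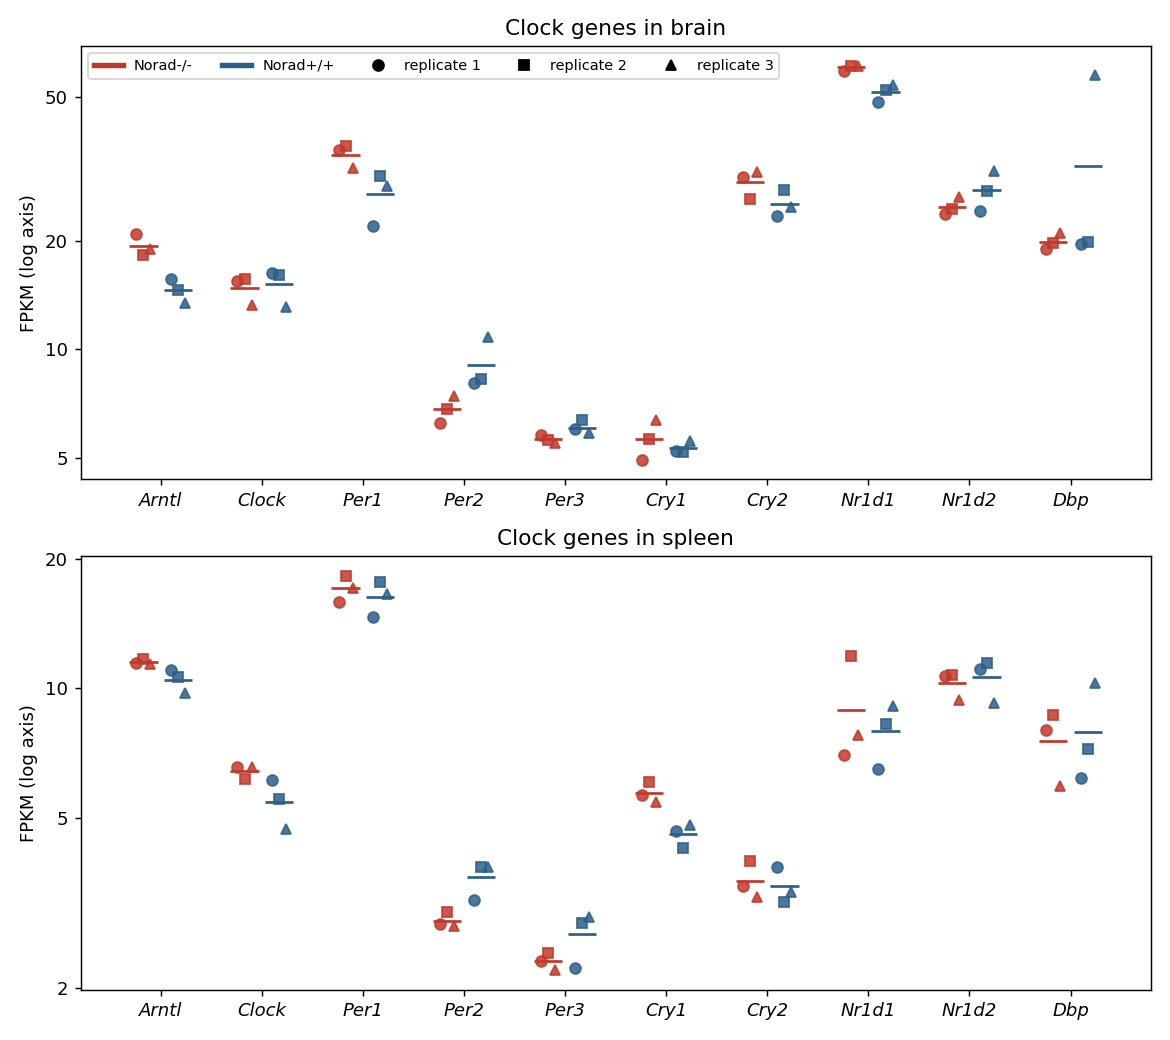
FPKM of the 10 clock genes in brain (top) and spleen (bottom), on log axes, with 1 point for each of 3 Norad-/- mice (red, left) and 3 Norad+/+ mice (blue, right) and a line at each mean. Arntl was higher and Per2 lower in every Norad-/- mouse in both tissues, and Dbp of 1 Norad+/+ brain stood at 57.6 FPKM, far above the other 5.

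Arntl, the activator whose loss stops the clock in mice, is a gene of chromosome 7 (113207465 to 113314126, plus strand). It had 20.9, 18.2 and 19.0 FPKM in Norad-/- brains, against 15.7, 14.7 and 13.5 FPKM in Norad+/+ brains. Every Norad-/- brain was above every Norad+/+ brain, with means of 19.4 ± 1.35 and 14.6 ± 1.11 FPKM (SD, n = 3 each). This was the clock gene with the smallest p in brain, a log2 fold change of 0.41 (SE 0.10, 95% interval 0.15 to 0.66), which did not pass after adjustment over all genes (adjusted p = 0.647). Spleens had 11.5, 11.7 and 11.4 FPKM in Norad-/- mice and 11.04, 10.60 and 9.76 FPKM in Norad+/+ mice. The spleen groups were apart by a narrow gap, with a log2 fold change of 0.14 (95% interval -0.05 to 0.33, adjusted p = 0.358); it was 0.09 without Norad+/+ replicate 3.

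Clock, the partner of Arntl, lies on chromosome 5. In brain it had 15.4, 15.7 and 13.3 FPKM in Norad-/- mice and 16.3, 16.1 and 13.1 FPKM in Norad+/+ mice. The groups lay within each other, at a log2 fold change of -0.03 (95% interval -0.34 to 0.28, adjusted p = 0.947). Spleen Clock was at 6.55, 6.15 and 6.56 FPKM in Norad-/- mice, against 6.10, 5.52 and 4.69 FPKM in Norad+/+ mice. All Norad-/- spleens were above the Norad+/+ spleens, the nearest pair by less than 0.1 FPKM, and the log2 fold change was 0.24 (95% interval -0.04 to 0.53, adjusted p = 0.283). Without Norad+/+ spleen replicate 3, the library with pancreas and liver markers, it was 0.14.

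The Period genes encode repressors, and their members did not stand on the same side. Per1, also an immediate early gene, had 35.8, 36.6 and 31.8 FPKM in Norad-/- brains, against 22.0, 30.4 and 28.4 FPKM in Norad+/+ brains. The groups did not overlap, and Norad+/+ replicate 1 was the lowest of the 6 brains, with a log2 fold change of 0.38 (95% interval 0.02 to 0.73, adjusted p = 0.718) that was 0.24 without that library. Per1 in spleen was 15.9, 18.3 and 17.1 FPKM in Norad-/- mice and 14.6, 17.7 and 16.6 FPKM in Norad+/+ mice, with overlap and a log2 fold change of 0.07 (95% interval -0.18 to 0.32, adjusted p = 0.722).

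Per2, whose protein binds the CRY proteins to close the loop, had 6.27, 6.83 and 7.45 FPKM in Norad-/- brains, against 8.06, 8.26 and 10.8 FPKM in Norad+/+ brains. All Norad-/- brains were below all Norad+/+ brains, the highest of which was replicate 3, and the log2 fold change was -0.39 (SE 0.14, 95% interval -0.73 to -0.04, adjusted p = 0.710). In spleen the values were 2.819, 3.003 and 2.786 FPKM in Norad-/- mice and 3.22, 3.84 and 3.84 FPKM in Norad+/+ mice. The order was the same, with a log2 fold change of -0.33 (SE 0.11, 95% interval -0.60 to -0.05, adjusted p = 0.198). The brain value was -0.25 without Norad+/+ replicate 3, and -0.31 (adjusted p = 0.307) without replicate 3 of both brain groups, on the same side in each case.

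Per3, a Period gene whose loss alters mouse rhythms only slightly, has its annotated span inside Camta1 on the same strand, and reads of the shared span may be split between them; Camta1 was at 11.6 to 19.0 FPKM in Norad-/- and 17.9 to 51.7 FPKM in Norad+/+ brains. Its brain values were 5.79, 5.60 and 5.50 FPKM in Norad-/- mice and 6.00, 6.35 and 5.86 FPKM in Norad+/+ mice. The groups did not overlap but were close, at a log2 fold change of -0.11 (95% interval -0.31 to 0.10, adjusted p = 0.753). Spleen Per3 was 2.32, 2.42 and 2.21 FPKM in Norad-/- mice and 2.23, 2.84 and 2.93 FPKM in Norad+/+ mice, which overlapped (log2 fold change -0.19, 95% interval -0.53 to 0.15, adjusted p = 0.462).

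Cry1, the stronger of the cryptochrome repressors, had 4.95, 5.65 and 6.37 FPKM in Norad-/- brains and 5.23, 5.19 and 5.56 FPKM in Norad+/+ brains. The brain groups overlapped, with a log2 fold change of 0.08 (95% interval -0.20 to 0.36, adjusted p = 0.850). In spleen it had 5.64, 6.06 and 5.44 FPKM in Norad-/- mice, against 4.65, 4.24 and 4.80 FPKM in Norad+/+ mice. Those groups stood apart, and this was the clock gene with the smallest p in spleen (log2 fold change 0.32, SE 0.09, 95% interval 0.09 to 0.55, adjusted p = 0.184).

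Cry2 had 30.1, 26.2 and 31.1 FPKM in Norad-/- brains, against 23.4, 27.6 and 24.9 FPKM in Norad+/+ brains. One Norad-/- brain fell among the Norad+/+ brains, and the log2 fold change was 0.20 (95% interval -0.07 to 0.48, adjusted p = 0.718). Spleens held 3.46, 3.96 and 3.26 FPKM in Norad-/- mice and 3.83, 3.18 and 3.35 FPKM in Norad+/+ mice, with a log2 fold change of 0.04 (95% interval -0.26 to 0.34, adjusted p = 0.874). Reads of Cry2 and of the opposite-strand transcript D930015M05Rik, at 4.37 to 5.49 FPKM in Norad-/- and 4.81 to 5.18 FPKM in Norad+/+ brains, may likewise be mixed.

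Nr1d1, the receptor gene that represses Arntl, had the highest mean of the 10 in brain in both genotypes, although Dbp exceeded it in Norad+/+ replicate 3. It had 59.2, 61.2 and 61.3 FPKM in Norad-/- brains, against 48.4, 52.6 and 54.0 FPKM in Norad+/+ brains. The groups did not overlap and each was tight, and the log2 fold change was 0.23 (SE 0.09, 95% interval 0.01 to 0.45, adjusted p = 0.718). Its spleen values were 6.99, 11.9 and 7.77 FPKM in Norad-/- mice and 6.48, 8.26 and 9.12 FPKM in Norad+/+ mice. Norad-/- replicate 2 was the highest, the rest overlapped, and the log2 fold change was 0.14 (95% interval -0.42 to 0.69, adjusted p = 0.766). Nr1d1 overlaps the opposite-strand gene Thra by 1075 bases; Thra was at 190 to 228 FPKM in Norad-/- and 183 to 267 FPKM in Norad+/+ brains, and whether the quantification kept the strands apart is not given in the sources used here.

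Nr1d2, its relative, had 23.8, 24.5 and 26.4 FPKM in Norad-/- brains and 24.2, 27.5 and 31.3 FPKM in Norad+/+ brains. The groups overlapped at their lower ends, with a log2 fold change of -0.15 (95% interval -0.44 to 0.15, adjusted p = 0.762). In spleen Nr1d2 was 10.7, 10.7 and 9.41 FPKM in Norad-/- mice and 11.1, 11.4 and 9.27 FPKM in Norad+/+ mice (log2 fold change -0.04, 95% interval -0.31 to 0.23, adjusted p = 0.861).

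Dbp, the output factor and one of the transcripts with the widest daily swing in most tissues, had 19.0, 19.8 and 21.0 FPKM in Norad-/- brains and 19.6, 19.9 and 57.6 FPKM in Norad+/+ brains. Of the 6 brains 5 lay together and Norad+/+ replicate 3 stood far above them. The log2 fold change of -0.50 (95% interval -1.51 to 0.50, adjusted p = 0.762) rested on that library and was 0.01 without it. Spleen Dbp was 7.98, 8.69 and 5.92 FPKM in Norad-/- mice and 6.17, 7.24 and 10.3 FPKM in Norad+/+ mice, with overlap and a log2 fold change of -0.05 (95% interval -0.61 to 0.50, adjusted p = 0.919). Dbp overlaps Sphk2, on the other strand, by 737 bases; in brain Sphk2 was at 9.24 to 11.5 FPKM in Norad-/- mice and at 8.39 FPKM in Norad+/+ replicate 3, the lowest of the 6 brains in the library where Dbp was highest.

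**Figure D2:**
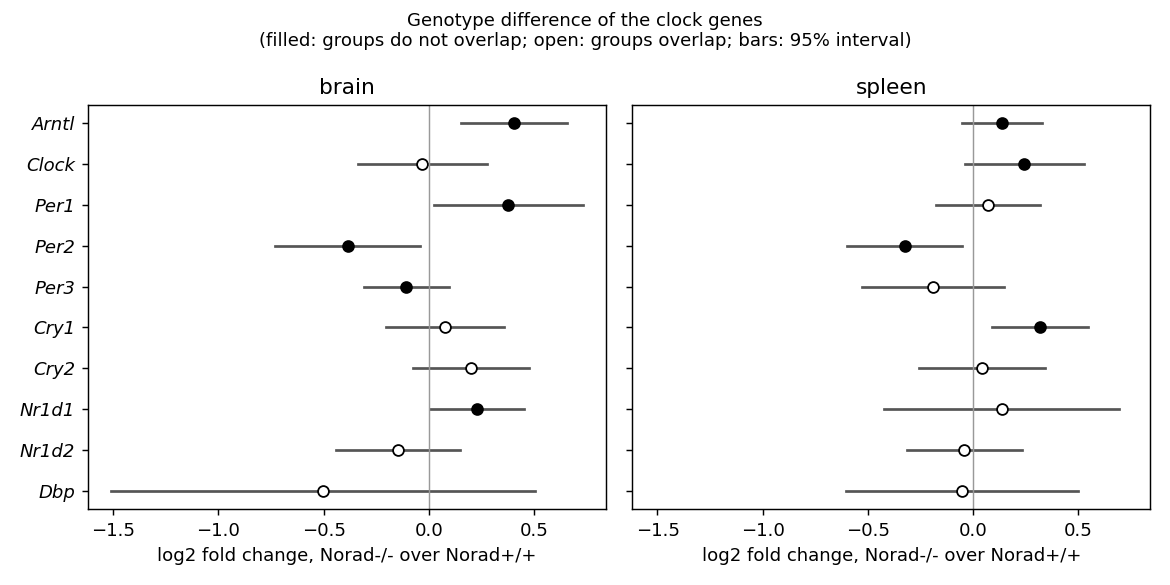
Log2 fold change of Norad-/- over Norad+/+ for each clock gene in brain (left) and spleen (right), with 95% intervals of the fit. Filled points mark genes whose groups did not overlap; intervals clear of 0 were those of Arntl, Per1, Per2 and Nr1d1 in brain and of Per2 and Cry1 in spleen, and none passed after adjustment over all genes.

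Whether the genotype difference itself differed between the tissues was tested as an interaction over all 12 libraries. None of 14192 genes passed (0%), and at an unadjusted p under 0.05 it was 14.7% of genes and 0 of the 10 clock genes. The nearest was Arntl, whose brain difference exceeded its spleen difference by 0.27 on the log2 scale (95% interval -0.01 to 0.55, adjusted p = 0.356). For Per2 the brain minus spleen difference was -0.06 (95% interval -0.47 to 0.35), and for Cry1 it was -0.24 (95% interval -0.58 to 0.10). These intervals leave room for differences as large as the effects themselves. If the tissues share mice, the libraries are not independent across tissues, which this test assumes.

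The levels were set side by side between tissues with no test. Cry2 was 8.18 times as high in brain as in spleen in Norad-/- mice and 7.32 times in Norad+/+ mice, the widest ratio of the 10. Nr1d1 followed at 6.81 in Norad-/- and 6.50 in Norad+/+ mice. Clock, Per2, Per3, Nr1d2 and Dbp were between 2.31 and 2.64 times as high in brain in Norad-/- mice and between 2.27 and 4.10 times in Norad+/+ mice, the upper value being Dbp, whose ratio was 2.50 without Norad+/+ brain replicate 3. Per1 and Arntl differed less, at 2.03 and 1.68 times in Norad-/- mice and 1.65 and 1.40 times in Norad+/+ mice. Cry1 was the exception: its mean in brain was 0.990 times that of spleen in Norad-/- mice, with overlapping ranges, and 1.17 times in Norad+/+ mice, where the ranges did not overlap. The spleen table was not scaled together with the brain table, so these ratios describe the deposited values.

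The order of the levels also differed. In Norad-/- brains it ran Nr1d1, Per1, Cry2, Nr1d2, Dbp, Arntl, Clock, Per2, Cry1 and Per3, and neighbours whose ranges overlapped were Cry2 and Nr1d2, Dbp and Arntl, Per2 and Cry1, and Cry1 and Per3. Norad+/+ brains ran Nr1d1, Dbp, Nr1d2, Per1, Cry2, Clock, Arntl, Per2, Per3 and Cry1, where each neighbour among the first 5 overlapped the next, Dbp spanning 19.6 to 57.6 FPKM, as did Clock and Arntl. Arntl stood above Clock in Norad-/- brains, with ranges of 18.2 to 20.9 and 13.3 to 15.7 FPKM. In Norad+/+ brains the ranges of Arntl and Clock overlapped, at 13.5 to 15.7 and 13.1 to 16.3 FPKM. Spleens of both genotypes had Per1 on top, with Arntl and Nr1d2 next and Per3 last.

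**Figure D3:**
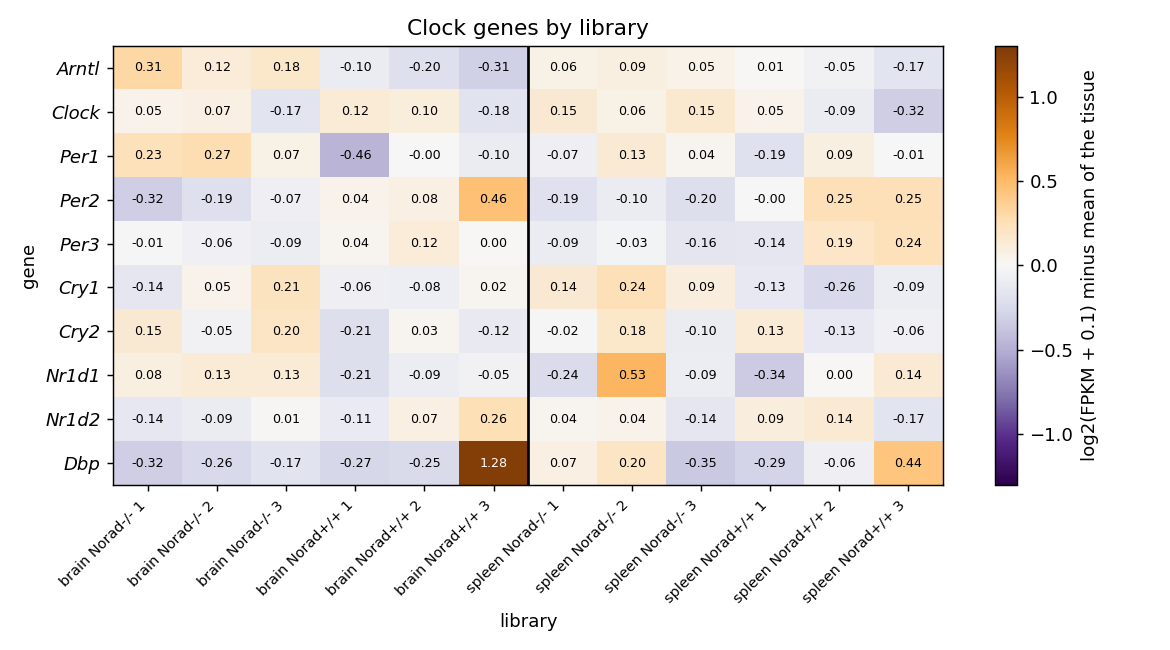
Level of each clock gene (rows) in each of the 12 libraries (columns, Norad-/- left of Norad+/+ in each tissue), as log2(FPKM + 0.1) minus the mean of the 6 libraries of the tissue. Dbp in Norad+/+ brain replicate 3 was 1.28 above its mean, the largest value shown, and Nr1d1 in Norad-/- spleen replicate 2 was 0.53 above.

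At the median clock gene, mice of 1 group differed a little less than at the median of all genes tested. Genes of like level were not compared. The residual SD of the fit, which measures the spread within groups on the log2 scale, had a median of 0.14 over the 10 in brain, against 0.19 over all genes, and 0.14 in spleen, against 0.16. In brain Per3 (0.05) and Nr1d1 (0.06) were among the least variable genes tested, below the 6th percentile, and Dbp (0.63) was at the 95.8th percentile. In spleen Arntl (0.06) was at the 7.08th percentile, while Nr1d1 (0.34) and Dbp (0.33) were at the 83.2nd and 82.9th. Single libraries carried much of this: the residual SD of Dbp in brain was 0.06 without Norad+/+ replicate 3, and that of Nr1d1 in spleen was 0.21 without Norad-/- replicate 2.

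**Figure D4:**
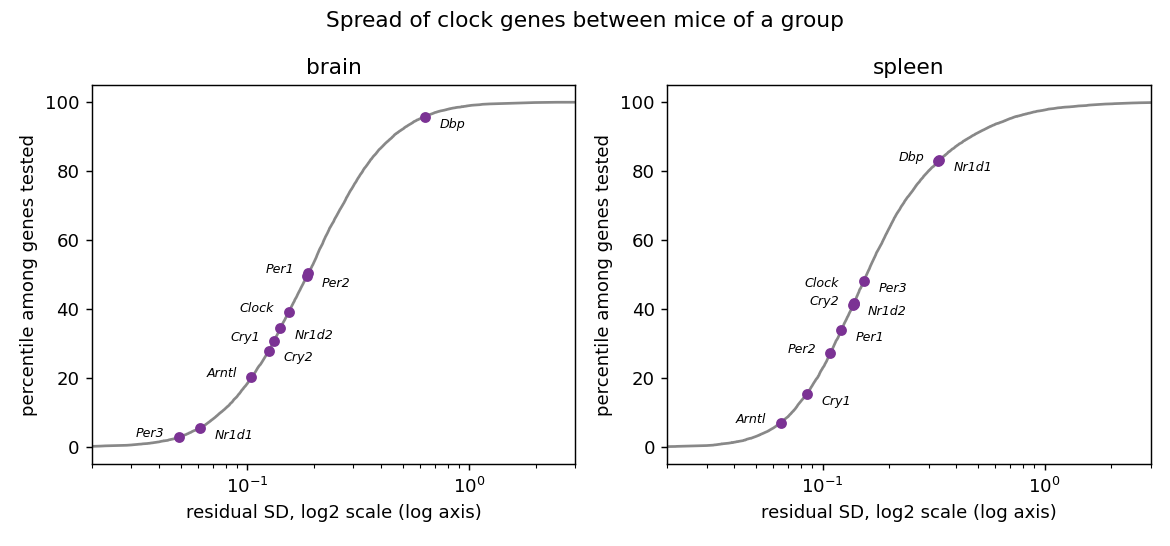
Residual SD within groups (log2 scale, log axis) of the 10 clock genes (points) on the cumulative curve of all genes tested in brain (left) and spleen (right), with the percentile on the vertical axis. Dbp lay at 0.63 in brain, through 1 library at 57.6 FPKM, and Nr1d1 and Dbp lay together at the top in spleen.

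The other parts of the clock were read from 20 genes that regulate or extend the loop. In brain 19 of them were tested, 0 passed after adjustment, and at an unadjusted p under 0.05 3 were higher and 1 lower, against 6.62% of all genes in either direction, with a median log2 fold change of 0.13, against 0.02 over all genes. Bhlhe41 (DEC2), which represses through E-boxes, had 22.1, 24.8 and 21.6 FPKM in Norad-/- brains, against 9.84, 9.16 and 13.7 FPKM in Norad+/+ brains. It was the clock regulator with the smallest p in brain, above in all 3 Norad-/- mice, with a log2 fold change of 1.08 (SE 0.17, adjusted p = 0.256); in spleen the value was 0.05. Ciart, a repressor of the ARNTL and CLOCK pair, had 6.50, 6.21 and 6.47 FPKM in Norad-/- and 4.29, 5.43 and 3.75 FPKM in Norad+/+ brains. As deposited, it was higher without overlap in both tissues, as 1.3% of the 10481 genes tested in both were. The log2 fold changes were 0.52 in brain (adjusted p = 0.690) and 0.36 in spleen (adjusted p = 0.27). Its spleen groups overlapped once every library was rescaled to the same total FPKM. Cipc, a CLOCK-binding repressor, differed by 0.63 in brain (adjusted p = 0.710).

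Csnk1e, a kinase that phosphorylates the PER proteins, had 19.5, 18.9 and 20.4 FPKM in Norad-/- brains, against 34.6, 37.1 and 70.9 FPKM in Norad+/+ brains. All Norad-/- brains were lower, and Norad+/+ replicate 3 was again the farthest, with a log2 fold change of -1.19 (SE 0.27, adjusted p = 0.605). Hlf, a factor related to Dbp, had 44.1, 43.6 and 43.3 FPKM in Norad-/- and 50.8, 49.8 and 92.5 FPKM in Norad+/+ brains (log2 fold change -0.50, adjusted p = 0.718). In Norad+/+ replicate 3, where Dbp and Hlf were highest, Tef, the third member of that family, was lowest of the 6 brains at 41.2 FPKM. The remaining brains held Tef at 66.4 to 86.6 FPKM in Norad-/- and 71.7 and 85.8 FPKM in Norad+/+ mice, so the family did not move together in that library.

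In spleen 13 of the 20 were tested, 0 passed, and at an unadjusted p under 0.05 0 were higher and 3 lower, near the 21% of all genes in either direction, with a median log2 fold change of 0.05, against -0.02 over all genes. Timeless, which in mammals also works at the replication fork, had 3.50, 3.96 and 4.56 FPKM in Norad-/- spleens, against 7.69, 7.66 and 9.92 FPKM in Norad+/+ spleens. The groups were far apart, with a log2 fold change of -1.05 (SE 0.15, adjusted p = 0.129). Btrc, part of the ubiquitin ligase that marks PER proteins for breakdown, had 4.42, 4.11 and 5.54 FPKM in Norad-/- and 6.42, 6.90 and 7.98 FPKM in Norad+/+ spleens (log2 fold change -0.59, adjusted p = 0.160). Nfil3, which opposes Dbp at D-boxes, had 1.77, 1.63 and 1.49 FPKM in Norad-/- and 1.98, 2.26 and 2.33 FPKM in Norad+/+ spleens (log2 fold change -0.40, adjusted p = 0.194).

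**Figure D5:**
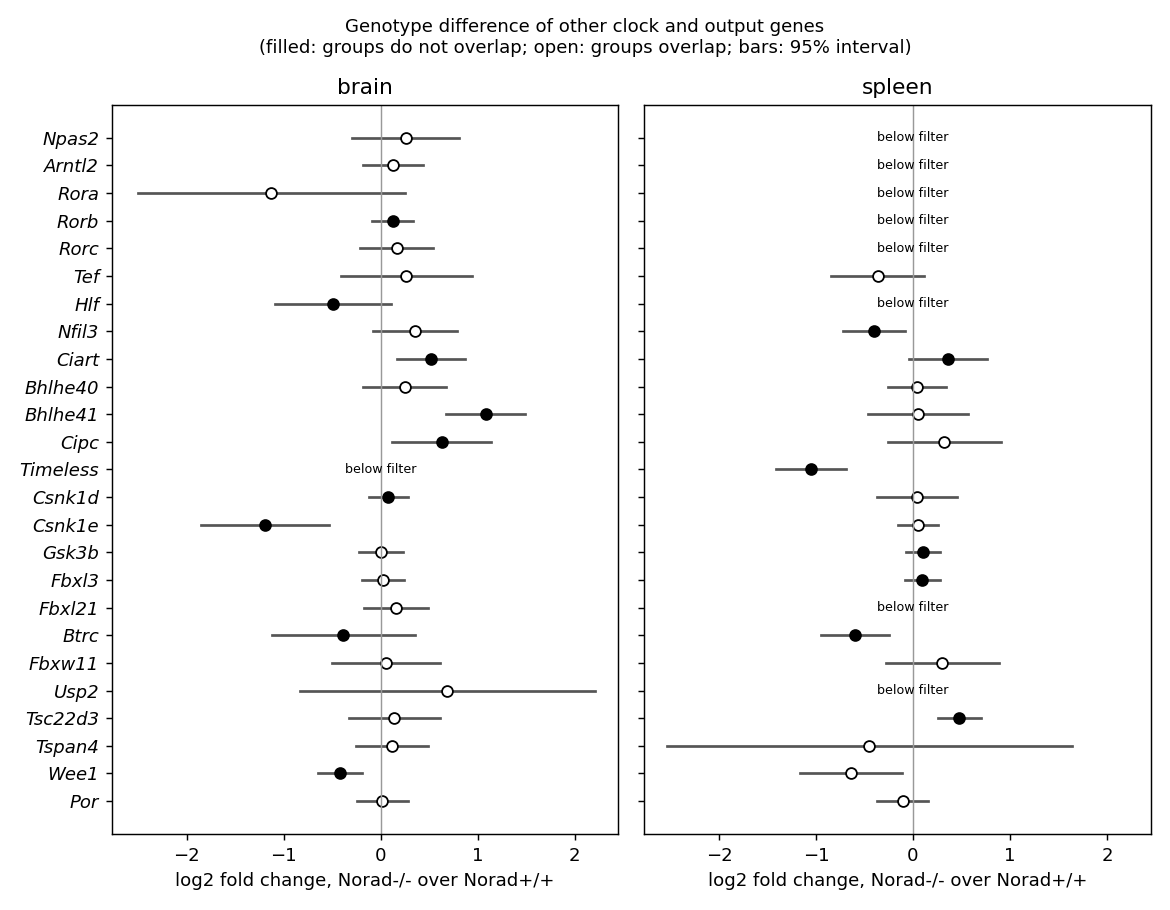
Log2 fold change of Norad-/- over Norad+/+ with 95% intervals for 20 other clock genes and 5 output genes in brain (left) and spleen (right). Bhlhe41 (1.08) and Csnk1e (-1.19) lay farthest from 0 among brain genes with groups that did not overlap, and Timeless (-1.05) in spleen; none passed after adjustment.

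Of 5 output genes that cycle in many mouse tissues, 0 of 5 passed in brain and 0 of 4 tested in spleen. Wee1, a cell cycle kinase under E-box control, had 5.20, 5.24 and 5.41 FPKM in Norad-/- brains, against 7.52, 6.48 and 7.35 FPKM in Norad+/+ brains. The groups were apart in brain, at -0.42 (adjusted p = 0.601), and overlapped in spleen, at -0.64 (adjusted p = 0.197). Tsc22d3 (GILZ), which also answers to glucocorticoids, had 214, 216 and 191 FPKM in Norad-/- spleens, against 158, 151 and 137 FPKM in Norad+/+ spleens. It was above in all Norad-/- spleens, with a log2 fold change of 0.48 (SE 0.09, adjusted p = 0.141), and was 0.14 in brain (adjusted p = 0.838). Por and Tspan4 gave 0.02 and 0.12 in brain and -0.11 and -0.45 in spleen, with overlapping groups. Usp2 gave 0.69 in brain, where Norad+/+ replicate 3 held 3.50 FPKM and the other 5 brains 16.1 to 19.1.

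Glucocorticoids rise and fall with the day and act on Per1 among others, so 8 responsive genes were read beside it. In spleen 7 were tested and all 7 lay above 0, with a median log2 fold change of 0.48, against -0.02 over all genes. After rescaling all 7 still lay above 0, with a median of 0.60, but the median of all genes was then 0.10. The share of all genes above 0 was not taken. At an unadjusted p under 0.05 there were 4 of the 7, against 21% of all genes, and 0 passed after adjustment. These 4 were Tsc22d3, Ddit4 (0.45), Pdk4 (0.69) and Errfi1 (0.66), whose adjusted p lay between 0.141 and 0.236. Fkbp5, a sensitive marker of glucocorticoid action, was spread within groups, with 9.51, 17.7 and 27.3 FPKM in Norad-/- and 8.89, 17.6 and 10.7 FPKM in Norad+/+ spleens. Sgk1 gave 0.04 and Cdkn1a 0.94 in spleen, again with overlap. In brain 8 were tested, 0 passed, and the median was 0.14, with Errfi1 (0.67, adjusted p = 0.690) the 1 gene without overlap; Fkbp5 (-0.07), Sgk1 (0.24), Zbtb16 (-0.12), Ddit4 (-0.16), Pdk4 (0.14) and Cdkn1a (0.41) overlapped.

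Markers of cell types were read beside the spleen values, and 0 of them passed after adjustment. All 4 T cell markers were higher in every Norad-/- spleen, as 11.6% of all genes were, with sums of 304 to 375 FPKM in Norad-/- and 207 to 247 FPKM in Norad+/+ mice. All 6 markers of red cell precursors had negative log2 fold changes at an unadjusted p under 0.05, against 21% of all genes in either direction. The groups overlapped at each of these 6, with sums of 50.7 to 540 FPKM in Norad-/- and 434 to 1335 FPKM in Norad+/+ mice, and Norad-/- replicate 3 was far above the other Norad-/- spleens. Neutrophil markers summed to 92.1 to 1077 FPKM in Norad-/- and 527 to 1593 FPKM in Norad+/+ spleens, and red pulp macrophage markers to 253 to 371 and 340 to 505 FPKM. Of these 4 macrophage markers, 2 were lower in every Norad-/- spleen, as 14.9% of all genes were. They were Adgre1 (log2 fold change -0.77) and Cd5l (-0.88), while Vcam1 and Spic overlapped. The T cell marker mean was itself higher in every Norad-/- spleen, so a fit with it as a covariate can hardly separate it from genotype. With this covariate, the spleen log2 fold change of Cry1 was 0.13, of Clock 0.02, of Arntl -0.04 and of Per2 -0.15, nearer to 0 than without it. Under the same covariate Per1 (0.25), Cry2 (-0.48) and Nr1d2 (-0.39) lay farther from 0. Per3 went from -0.19 to 0.09, Nr1d1 from 0.14 to 0.07 and Dbp from -0.053 to -0.055. Arntl, Cry2 and Per3 thus changed sign. Adjusted p of the clock genes in this limma fit lay between 0.732 and 0.991, and the part of T cells in these values was not tested. With the red cell precursor mean, Cry1, Clock, Arntl and Per2 were at 0.25, 0.18, 0.07 and -0.30, and Per1 (0.12), Cry2 (-0.15), Nr1d2 (-0.23) and Dbp (-0.20) were farther from 0 than without it. Per3 (-0.15) and Nr1d1 (0.07) were nearer. Fewer cells of a type and less RNA per cell cannot be told apart in bulk tissue.

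In brain, markers of the suprachiasmatic nucleus summed to 17.8 to 20.8 FPKM in Norad-/- and 17.1 to 25.8 FPKM in Norad+/+ mice, and 0 of the 4 tested had groups that did not overlap. The other two, below the filter, were higher in every Norad-/- brain at levels near 0: Six6 at 0.0785 to 0.309 FPKM in Norad-/- and 0.0138 to 0.0763 in Norad+/+ brains, and Nms at 0.137 to 0.196 and 0.0272 to 0.0840 FPKM. Avp, Six6 and Nms were at 0 in every spleen. Choroid plexus markers summed to 355 to 375 FPKM in Norad-/- and 384 to 640 FPKM in Norad+/+ brains, nearly all of it Ttr, the 1 of 3 choroid plexus markers without overlap. Microglia markers summed to 45.3 to 51.6 FPKM in Norad-/- and 36.6 to 45.7 FPKM in Norad+/+ brains. Their part in the values of the clock genes was not tested. Without replicate 3 of both brain groups, Arntl gave 0.36, Per1 0.48 and Per2 -0.31, each on the same side as with all 6 brains.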

How the data were processed

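Brain and spleen libraries of 3 Norad-/- and 3 Norad+/+ mice each were used. The authors aligned single reads of stranded poly(A) libraries to GRCm38 with TopHat2 2.0.12, kept unique reads, and counted them with featureCounts 1.4.6 for their own edgeR 3.8.6 test; the deposited FPKM values were made with StringTie 1.2.2, and 0 value columns lacked a sample. Of 24062 genes, 2883 were at 0 in all 12 libraries. Depth was estimated from the FPKM worth 1 read at genes with 1 transcript; 44.3% to 49% of values at or below 0.1 FPKM were whole reads within 2%, so counts were not recovered and no count test was run.

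log2(FPKM + 0.1), which understates changes of low genes, was fitted with limma 3.58.1 (variance trend, R 4.3.3) for genes whose mean reached 1 FPKM, two-sided, with Benjamini-Hochberg adjustment within each fit. Replicate numbers are the labels' own; nothing ties a number to 1 mouse across tissues. The members and lists were chosen with earlier results of these data known. All members are named; of other lists, up to 8 genes with the smallest p in either tissue (Tef and the overlapping genes Thra, Sphk2 and Camta1 were named after their values were seen). Genes most like Arntl and Dbp were ranked by Pearson correlation of deviations from the group means. Alternatives were other pseudocounts, filters, scalings, variance models, a replicate block and leaving out each library; marker covariates, and dropping the brain libraries numbered 3, were chosen after seeing the data. The fit was tested on simulated data. Software was pandas 2.3.3, numpy 2.4.6 and matplotlib 3.10.9 under Python 3.11.15.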

Additional observations from a re-analysis of the deposited data

How the results depend on the processing

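None of the 10 clock genes passed the threshold under any alternative in either tissue; the lowest adjusted p was 0.307 in brain (without replicate 3 of both groups) and 0.101 in spleen (Per2 without Norad+/+ replicate 1). A filter at a mean of 5 FPKM left 7 of them tested in spleen. Counts over all genes moved. In brain, with 2 genes past the threshold, it was 25 without replicate 3 of both groups and 1 to 15 leaving out 1 library, 15 without Norad+/+ replicate 3. In spleen, with 4, it was 2 with no filter, 2 after rescaling to a common total, 2 after quantile normalization, 1 with the red cell precursor covariate, 1 with the T cell covariate, and 1 to 93 leaving out 1 library, 93 without Norad-/- replicate 3. For the brain minus spleen difference, with 0, it was 2 at a pseudocount of 0.01, 15 at a pseudocount of 1, 3 after quantile normalization, and 0 to 317 leaving out 1 library, 317 without spleen Norad-/- replicate 3. The replicate block gave 1 gene in brain and 1 in spleen and 0 in the difference, with 2 clock genes at an unadjusted p under 0.05 in brain and 2 in spleen; same-numbered libraries correlated at 0.061, 0.068 and 0.11 in brain, each best with its own number, and at 0.338, -0.147 and 0.29 in spleen, so the numbers were not taken to pair mice. Rescaling moved the median of all spleen genes to 0.10, against -0.02 as deposited. Of 20 clock gene differences, 10 kept their sign under all alternatives. Reversals in spleen were Nr1d2 (0.078 rescaled, 0.051 quantile), Dbp (0.067 rescaled, 0.045 quantile), Cry2 (-0.15 with the red cell precursor covariate, -0.48 with the T cell covariate), Arntl (-0.04) and Per3 (0.088) with the T cell covariate; the brain minus spleen difference of Per3 was -0.003 rescaled and -0.081 after quantile normalization. Leaving out 1 library, brain values ranged from -0.13 to 0.045 for Clock, -0.009 to 0.169 for Cry1 and -0.763 to 0.011 for Dbp; spleen values from -0.005 to 0.132 for Per1, -0.036 to 0.116 for Cry2, -0.094 to 0.287 for Nr1d1, -0.134 to 0.021 for Nr1d2 and -0.213 to 0.152 for Dbp; and the brain minus spleen difference from -0.136 to 0.073 for Per2, -0.057 to 0.324 for Nr1d1 and -0.71 to 0.064 for Dbp. The cause was not tested. With 3 mice a group, a p that missed the threshold does not show that a clock gene was unchanged.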

Other observations

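Which genes followed the clock genes from mouse to mouse was described over the 12 libraries, as deviations from the 4 group means, among 6353 genes that averaged 5 FPKM or more in brain and in spleen. These values are descriptions with no test, since the libraries share preparation and the best of many genes were taken. Arntl was followed most closely by Camk1d (Pearson r 0.92, Spearman rho 0.97), Cx3cr1, a microglial receptor gene in brain (r 0.88, rho 0.88), and Eogt (r 0.87, rho 0.94). With the point of Norad+/+ brain replicate 3 dropped the r values were 0.90, 0.85 and 0.85. The group means were not taken again, so that library still shaped the deviations of the other Norad+/+ brains. Within brain and within spleen, r was 0.91 and 0.96 for Camk1d, 0.98 and 0.65 for Cx3cr1, and 0.90 and 0.81 for Eogt. Cx3cr1 was also at 9.24 to 11.1 FPKM in Norad-/- and 8.07 to 11.1 FPKM in Norad+/+ spleens. Dbp was followed by Flot1 (r 0.98, rho 0.96), Snrnp70, a splicing factor gene (r 0.98, rho 0.98), and Rab24 (r 0.98, rho 0.94). With the point of that brain library dropped in the same way, r was 0.96 for each. As Dbp stood far higher in that library, which stayed in the group mean, these r values do not show the match without it.

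In Norad+/+ brain replicate 3, genes of the clock stood on both sides of the other 5 brains. Dbp (57.6 FPKM), Hlf (92.5), Csnk1e (70.9), Btrc (36.2) and Per2 (10.8) were highest there, while Tef (41.2), Usp2 (3.50) and Arntl (13.5) were lowest. This library also had the lowest estimated depth, 28.35 M reads, and whether it was collected at another hour is not given in the sources used here.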
